A study of Syringa oblata with 2 samples.

Results

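The glutathione S-transferases (GSTs) and antioxidant enzymes of *S. oblata* leaves were taken from a table of 73159 assembled transcripts (unigenes) as those whose Swiss-Prot description named a glutathione S-transferase, glutathione reductase, glutathione peroxidase, ascorbate peroxidase, superoxide dismutase, monodehydroascorbate reductase, dehydroascorbate reductase, peroxiredoxin or thioredoxin. The search found 236 unigenes, of which 59 were left out because their best match in the Nr protein database was rice (*Oryza*). The remaining 177 unigenes are the members described here. The search took whole descriptions, so the members also held copper chaperones for superoxide dismutase and 22 thioredoxin-fold proteins outside the other classes. These 22 were grouped as a class of their own, which includes thioredoxins with TPR repeats.

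Leaves of *S. oblata*, a lilac used as a medicinal plant, were compared between natural light (Z0) and a black net that left 50% to 60% of the light (Z1, labelled as 40% to 50% shading). Each condition had 2 RNA-seq libraries, Z0-1 and Z0-2, and Z1-1 and Z1-2. No genotype or age is given. Leaves came from 5 trees per treatment, and how many of them went into each library is not stated. All shrubs stood outdoors on a university campus without added water or fertiliser, the net was put up in May, and leaves of both conditions were taken in September.

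Plants remove the superoxide and hydrogen peroxide that form in light with a chain of enzymes. Superoxide dismutase turns superoxide into hydrogen peroxide, ascorbate peroxidase reduces the peroxide with ascorbate, and monodehydroascorbate reductase, dehydroascorbate reductase and glutathione reductase recover ascorbate and glutathione. Peroxiredoxins and glutathione peroxidases reduce peroxides with electrons from thioredoxins, small proteins that in chloroplasts are themselves reduced by ferredoxin-thioredoxin reductase and there also switch enzymes of the Calvin cycle on in light. GSTs join glutathione to reactive compounds or carry them, and in leaves several are induced by stress.

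Values are TPM, a level per transcript length given as a share of a fixed total that all libraries have in common, so levels can be set side by side between unigenes. A call needed an adjusted p under 0.05 (limma, Benjamini-Hochberg over all 73159 unigenes) together with a log2 fold change above 1 or below -1. Fold changes are given on the log2(TPM + 1) scale, Z1 over Z0, which understates the change of low unigenes. With 2 libraries a condition, an exact test of one unigene alone could not reach p < 0.05, and every call rests on the spread that limma shares across unigenes. In bulk leaves, fewer cells of a type and less RNA per cell cannot be told apart.

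The libraries differed in other ways. The 10 unigenes matched to carlaviruses, a genus of plant viruses, held 22.8% and 13.9% of the TPM in Z0-1 and Z0-2 but 0.147% and 0.0505% in Z1-1 and Z1-2, so the shading and the virus level cannot be told apart. The 5729 rice-matched unigenes summed to 33615 TPM in Z1-2 and to between 2436 and 2975 TPM in the other libraries. The median unigene stood at a log2 fold change of 0.45, and at 0.23 after median-ratio scaling. Leaf markers were abundant in all libraries, with summed Rubisco small subunits between 12074 and 13508 TPM.

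Of the 177 members, 6 were higher in Z1 and 1 was lower. This was 3.39% of the members, beside 3.2% of all unigenes called higher, and 0.565%, beside 1.8% of all unigenes called lower. With the same fold limit and p under 0.05 before adjustment, 25 members were higher and 8 were lower, which was 14.1% and 4.52%, against a background of 16.5% and 7.71%. The median log2 fold change of the members was 0.13, below the 0.45 of all unigenes, and turned to -0.185 after median-ratio scaling. Both Z1 libraries lay above both Z0 libraries in 58 members (32.8%, against 41.5% of all unigenes) and below both in 41 (23.2%, against 18.2%). The share of members called higher was near that of all unigenes. That background holds the rice-matched unigenes, which the members do not. With rice left out of it, 3.47% of unigenes were called higher and 1.95% lower. Before adjustment the shares were then 17.9% and 8.34%. Both Z1 libraries lay above both Z0 libraries in 45.0% and below both in 19.7%, and the median log2 fold change was 0.37. Every call was lost when Z0-1, Z0-2 or Z1-2 was left out, when limma called 0 members in either direction. Before adjustment p was then under 0.05, with the fold limit, for 18, 19 and 27 members in the upward and 7, 3 and 8 in the downward direction.

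**Figure D1:**
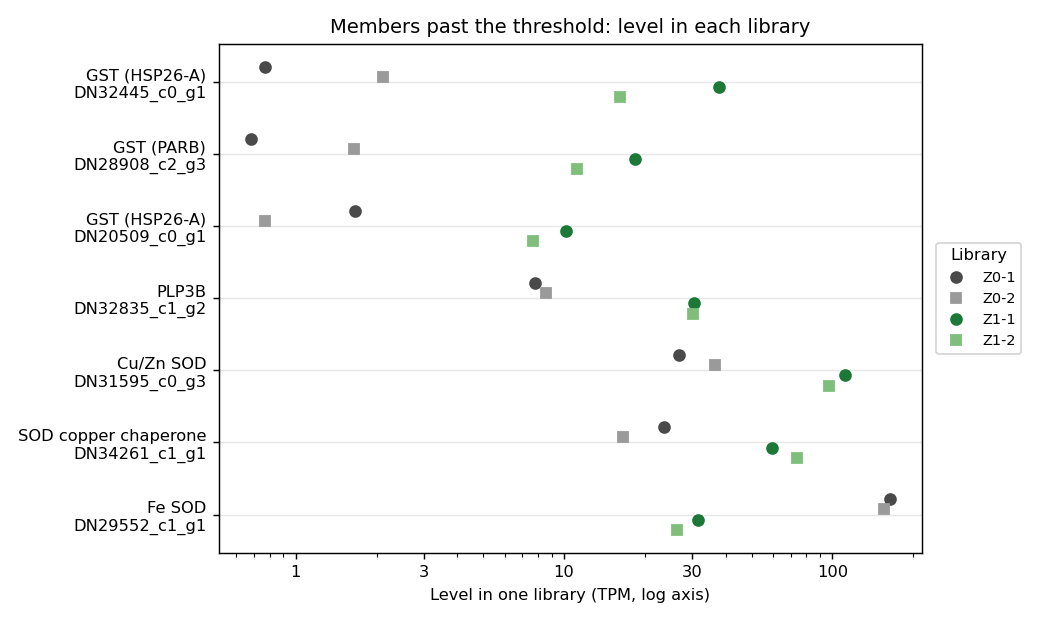
Level in each library (TPM, log axis) of the 7 members past the threshold, with Z0 libraries in grey and Z1 libraries in green. The Fe superoxide dismutase lies at 155 to 163 TPM in Z0 and at 26.3 to 31.5 TPM in Z1, while both Z1 libraries lie above both Z0 libraries for the other 6.

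The clearest difference lay in the superoxide dismutases (SODs), where the more abundant of 2 members that use iron fell and some members of the copper system rose. The Fe SOD of chloroplasts (SODB, DN29552_c1_g1, 1173 nt), which removes superoxide in the stroma, stood at 163.42 and 155.48 TPM in Z0-1 and Z0-2 and at 31.48 and 26.31 TPM in Z1-1 and Z1-2. The ranges were far apart, and the level fell by 2.43 on the log2 scale (SE 0.20, adjusted p = 0.0334). Among the members it had the lowest fold change. It was also called lower in 11 of its 15 alternative fits, with log2 fold changes from -2.74 to -2.28, while SODCC and CCS, described next, were called in 7 and 3 of 15.

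A Cu/Zn SOD matched to a tobacco enzyme (SODCC, DN31595_c0_g3, 652 nt) stood at 26.87 and 36.55 TPM in Z0 against 111.08 and 96.89 TPM in Z1. The ranges did not overlap and it rose by 1.70 on the log2 scale (SE 0.24, adjusted p = 0.0433). The copper chaperone for SOD (CCS, DN34261_c1_g1), which in Arabidopsis delivers copper to the Cu/Zn enzymes, had 23.65 and 16.56 TPM under natural light against 59.38 and 73.95 TPM in shade. It rose by 1.69 (SE 0.27, adjusted p = 0.0475), a call that was lost after median-ratio scaling (log2 fold change 1.38, adjusted p = 0.0779) and TMM scaling (adjusted p = 0.0776). A sister unigene in the assembly cluster of SODCC, matched to the olive pollen allergen OLE5 (DN31595_c0_g7), had 100.41 and 130.51 TPM in Z0 against 172.29 and 188.72 TPM in Z1, without overlap but not past the threshold (log2 fold change 0.65, adjusted p = 0.148). Salmon may divide reads between such near copies, so the single values of SODCC and OLE5 are uncertain, while their sum was 127.28 and 167.06 TPM under natural light against 283.37 and 285.61 TPM in shade.

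By metal, the balance among the plant-matched SODs differed between the conditions. The 2 Fe SODs summed to 170.66 and 160.82 TPM in Z0 against 49.17 and 43.37 TPM in Z1, and the 7 Cu/Zn SODs to 171.65 and 214.53 TPM under natural light against 332.19 and 359.77 TPM in shade. The Fe enzymes made up 39.7% and 33.9% of these SOD transcripts in Z0 and 10.5% and 8.76% in Z1, while the Cu/Zn enzymes went from 39.9% and 45.2% to 70.8% and 72.6%. The mitochondrial Mn SOD (SODA, DN32785_c0_g1) lay at 87.61 and 99.42 TPM in Z0 against 87.8 and 92.13 TPM in Z1, so the conditions overlapped. The total over all 3 metals was 429.9 and 474.8 TPM under natural light against 469.2 and 495.3 TPM in shade. These shares are set within a library and do not depend on the scaling between libraries. They are sums, given as a description with no test.

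Not all members of the copper group moved. The 4 plant-matched chloroplastic Cu/Zn SODs summed to 25.62 and 24.5 TPM in Z0, to 24.1 TPM in Z1-1 and to 47.34 TPM in Z1-2, so only Z1-2 was higher. The 3 Cu/Zn SODs with no compartment named held the rest, at 146.03 and 190.03 TPM in Z0 against 308.09 and 312.43 TPM in Z1. The second Fe SOD (FSD3, DN34031_c0_g1), which in Arabidopsis sits at the chloroplast DNA, went the other way from SODB, with 7.24 and 5.34 TPM under natural light against 17.69 and 17.06 TPM in shade. It missed the threshold narrowly (log2 fold change 1.35, adjusted p = 0.0542) and is named here after its values were seen, as are the further members below that are neither called, nor among the 3 most abundant of a class, nor among its largest separated differences.

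**Figure D2:**
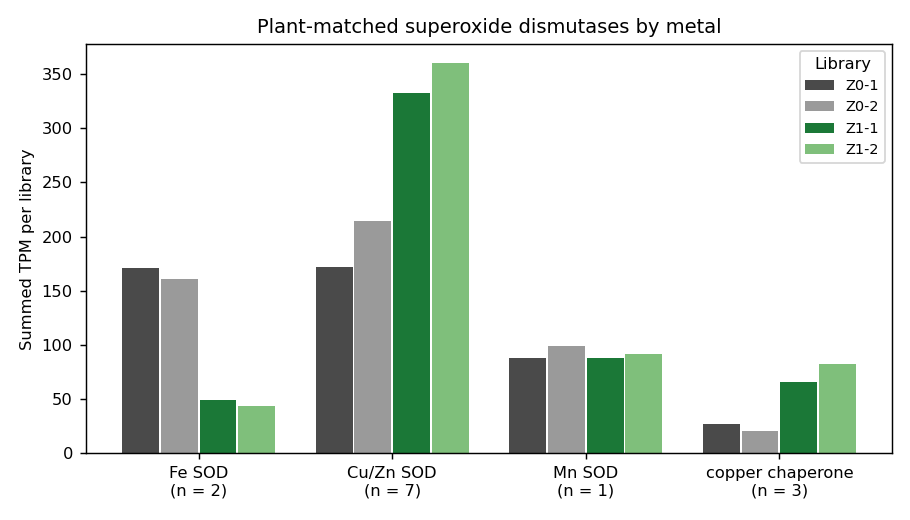
Summed TPM per library of the plant-matched superoxide dismutases by metal and of their copper chaperones, as bars from 0, with n the number of unigenes summed. Fe SOD falls from 161 to 171 TPM in Z0 to 43.4 to 49.2 TPM in Z1, Cu/Zn SOD lies at 332 and 360 TPM in Z1, and Mn SOD is level.

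The GSTs held 3 of the 7 calls. Of 35 GSTs, 3 rose, none was called lower, and before adjustment 12 passed p under 0.05 with the fold limit upward (34.3%, against 16.5% of all unigenes) and 0 downward (against 7.71%). Both Z1 libraries lay above both Z0 libraries in 18 GSTs (51.4%, against 41.5% of all unigenes) and below both in 4 (11.4%, against 18.2%). Their median log2 fold change was 0.71, beside 0.45 for all unigenes. The share called was 8.57%, beside 3.2% of all unigenes, and whether the class differs from other unigenes was not tested.

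All 3 GSTs that rose had at most 2.11 TPM in natural light. DN32445_c0_g1 (951 nt), matched to HSP26-A of soybean, a GST of the tau class first found as a heat shock protein, had 0.77 and 2.11 TPM in Z0 against 37.85 and 16.1 TPM in Z1 (log2 fold change 3.46, SE 0.52, adjusted p = 0.0455), the highest fold change of the members. A second HSP26-A match, DN20509_c0_g1 (805 nt), had 1.67 and 0.77 TPM under natural light against 10.14 and 7.63 TPM in shade (log2 fold change 2.17, SE 0.33, adjusted p = 0.0453). DN28908_c2_g3 (601 nt), matched to PARB of tobacco, an auxin-induced GST of the phi class, had 0.68 and 1.65 TPM in Z0 against 18.39 and 11.21 TPM in Z1 (log2 fold change 2.87, SE 0.38, adjusted p = 0.0401). Z1-1 was above Z1-2 in each of them, and no Z0 library came near either. After median-ratio scaling the adjusted p values were 0.0487, 0.0578 and 0.0427 in the same order, so the call of DN20509_c0_g1 was lost.

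More GSTs leaned the same way without passing the threshold. The phi class unigene matched to GSTF11 (DN35753_c0_g1) had 12.31 and 23.89 TPM under natural light against 64.35 and 49.69 TPM in shade (log2 fold change 1.66, adjusted p = 0.0746). Its cluster partner matched to GSTF12 (DN35753_c0_g2, 446 nt), the GST that in Arabidopsis is needed to bring anthocyanins to the vacuole, was near the bottom of the range, with 0.09 and 0.17 TPM in Z0 against 2.62 and 1.56 TPM in Z1 (adjusted p = 0.0983). The 3 tau class fragments of cluster DN35931, matched to GSTU9 and GSTU10, summed to 2.91 and 8.09 TPM under natural light against 33.09 and 16.87 TPM in shade. GSTU3 (DN23094_c0_g1, 217 nt) was listed at 0 in both Z0 libraries and at 6.71 and 2.29 TPM in Z1. Short fragments in one cluster may be parts of one gene, and their values are not independent.

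The abundant GSTs were mixed. Of the 12 plant-matched GSTs with a mean of at least 10 TPM, 5 had both Z1 libraries above both Z0 libraries (41.7%, against 53.2% of all unigenes of that level, rice left out), 1 had both below and 6 overlapped, with a median log2 fold change of 0.43. The mean was taken over both conditions, and 11 of the 12 had at least 10 TPM in every library. DN32445_c0_g1, at 0.77 and 2.11 TPM in Z0, passed only through Z1, and its place among the 5 is no support for a rise of abundant GSTs. Beside DN32445_c0_g1 and GSTF11, the separated ones were a GSTT1 of the theta class (DN28175_c0_g1), at 63.2 and 57.84 TPM in Z0 against 78.11 and 80.93 TPM in Z1, the third HSP26-A match (DN31478_c0_g3), at 36.78 and 44.53 TPM in Z0 against 56.42 and 66.67 TPM in Z1, and a zeta class GST (DN35533_c0_g1), at 25.32 and 33.8 TPM in Z0 against 52.63 and 42.52 TPM in Z1. Their adjusted p values were 0.254, 0.169 and 0.167. The most abundant one, matched to a henbane enzyme (DN32997_c0_g1), had 372.5 and 512.35 TPM in Z0 against 508.71 and 409.39 TPM in Z1, an overlap with a log2 fold change of 0.06 (adjusted p = 0.873). GSTF10 (DN32772_c0_g1) overlapped as well, with 81.74 and 126.19 TPM under natural light against 168.41 and 116.98 TPM in shade. GSTL1 (DN30831_c3_g1), of the lambda class that binds glutathione through a cysteine, was high in 1 library alone, with 80.94 and 100.22 TPM in Z0, 237.71 TPM in Z1-1 and 99.69 TPM in Z1-2. A GSTU17 match (DN30500_c0_g5) was lower, with 96.47 and 95.66 TPM in Z0 against 46.92 and 77.06 TPM in Z1 (adjusted p = 0.222). This unigene held most of the TPM of the 7 unigenes named as tau, which summed to 103.37 and 105.55 TPM under natural light against 92.4 and 99.67 TPM in shade. In 5 of these 7, all low, both Z1 libraries lay above both Z0 libraries (71.4%, against 41.5% of all unigenes). The 3 fragments of cluster DN35931 are among these 5 and may be parts of one gene.

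**Figure D3:**
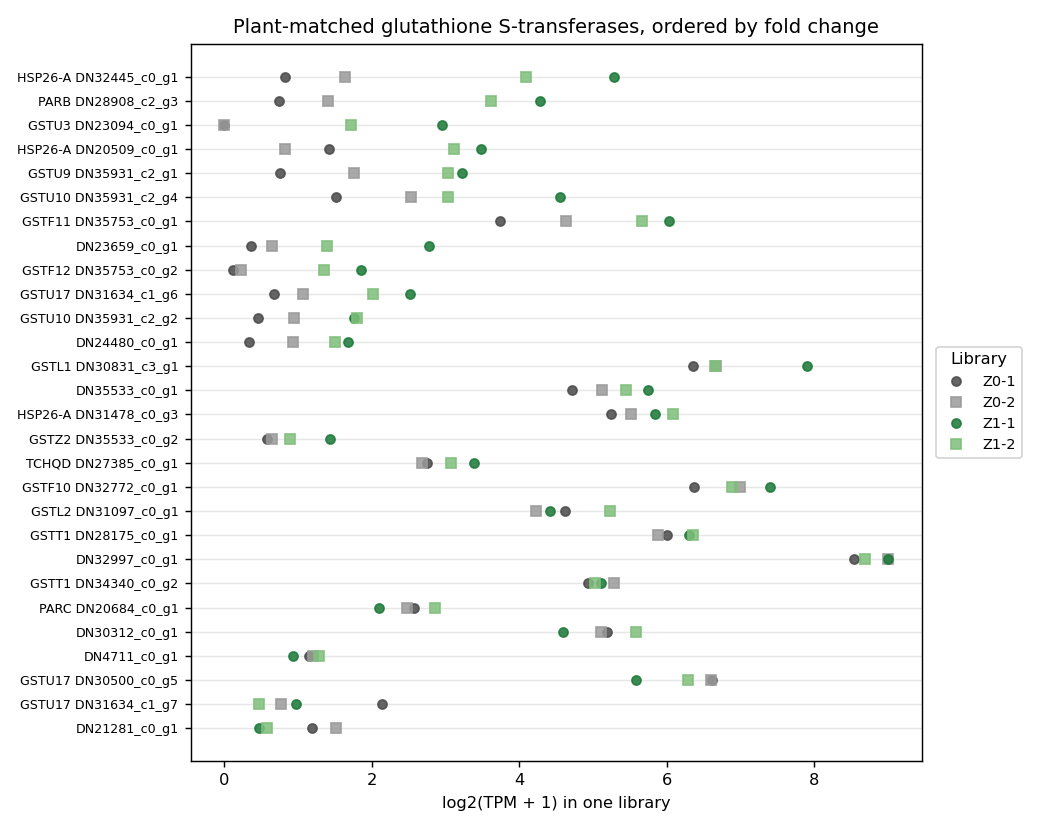
Level of each of the 28 plant-matched GSTs in each library, as log2(TPM + 1), ordered from the highest to the lowest fold change. The separated pairs at the top are mostly low unigenes, while the most abundant GST, DN32997_c0_g1, shows overlapping libraries.

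In the ascorbate-glutathione cycle no enzyme unigene was called, beside 3.2% of all unigenes called higher and 1.8% lower. The cytosolic ascorbate peroxidases came closest. The most abundant ascorbate peroxidase (APX1, DN36010_c0_g1) had 272.87 and 429.01 TPM in Z0 against 598.99 and 489.9 TPM in Z1 (log2 fold change 0.66, adjusted p = 0.229). A shorter APX1 unigene (DN27633_c0_g1, 555 nt) had 128.67 and 122.44 TPM under natural light against 258.11 and 246.6 TPM in shade. Its log2 fold change was 1.001 with an adjusted p of 0.0569, and it was called when low unigenes were filtered out at 5 TPM (adjusted p = 0.0325) or rice-matched unigenes were left out (adjusted p = 0.0433). After median-ratio scaling it lay under the fold limit (log2 fold change 0.685, adjusted p = 0.103). Together the 5 cytosolic unigenes summed to 466.15 and 637.27 TPM in Z0 against 945.54 and 808.29 TPM in Z1, a ratio of 1.59 without overlap. Of the 5, 3 had both Z1 libraries above both Z0 libraries (60.0%, against 41.5% of all unigenes), and 2 overlapped with negative log2 fold changes.

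Ascorbate peroxidases of other compartments gave no such gap. The peroxisomal APX3 (DN31559_c1_g1), on the peroxisome membrane, had 140.51 and 161.61 TPM under natural light against 137.82 and 170.01 TPM in shade. The thylakoid enzyme APXT (DN35486_c0_g1) had 35.08 and 35.47 TPM in Z0 against 26.7 and 33.21 TPM in Z1 (adjusted p = 0.479). Over all 11 ascorbate peroxidases the log2 fold changes ran from -0.484 to 1.001, with 3 unigenes separated upward (27.3%, against 41.5% of all unigenes) and 2 downward (18.2%, the same share as over all unigenes).

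The enzymes that regenerate ascorbate were nearly level. The most abundant monodehydroascorbate reductase (AFRR, DN35333_c0_g1) had 212.35 and 273.99 TPM under natural light against 208.62 and 223.38 TPM in shade, and MDAR5 of mitochondria (DN34931_c0_g2) had 42.02 and 42.27 TPM in Z0 against 44.27 and 47.95 TPM in Z1. The second AFRR unigene (DN35333_c0_g4) overlapped too, at 61.23 and 84.69 TPM under natural light against 104.96 and 70.1 TPM in shade. The peroxisomal MDAR4 (DN35426_c1_g1) was the exception among the abundant ones, at 40.02 and 51.55 TPM in Z0 against 22.62 and 29.44 TPM in Z1 (log2 fold change -0.79, adjusted p = 0.13). Its cluster held 2 more unigenes, and the 3 together summed to 59.53 and 81.49 TPM under natural light against 50.34 and 61.64 TPM in shade, which overlapped. Dehydroascorbate reductase was carried by DHAR3 of chloroplasts (DN27522_c0_g1), with 79.15 and 85.73 TPM in Z0 against 91.46 and 95.4 TPM in Z1, and by DHAR2 (DN34954_c0_g2), with 42.77 and 65.98 TPM under natural light against 53.32 and 49.29 TPM in shade.

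Glutathione reductase was mostly the cytosolic form (DN36701_c0_g1), at 66.84 and 79.31 TPM in Z0 against 123.46 and 88.9 TPM in Z1 (log2 fold change 0.52, adjusted p = 0.254). The main chloroplastic unigene (DN36248_c1_g3) overlapped, at 47.23 and 42.99 TPM under natural light against 42.33 and 54.73 TPM in shade. A 674 nt fragment in the same cluster (EMB2360, DN36248_c1_g4) was lower, at 11.87 and 14.66 TPM in Z0 against 3.82 and 5.43 TPM in Z1 (log2 fold change -1.35, adjusted p = 0.062), and a separate chloroplastic unigene (DN36136_c0_g1) was higher, at 6.04 and 2.87 TPM under natural light against 13.38 and 12.18 TPM in shade (log2 fold change 1.40, adjusted p = 0.0902). The fragment was called lower after median-ratio scaling (adjusted p = 0.0478), but its cluster as a sum of members, 59.1 and 57.65 TPM in Z0 against 46.15 and 60.16 TPM in Z1, overlapped.

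Glutathione peroxidases, which in plants take their electrons mainly from thioredoxin, had no call in 11 unigenes, beside 3.2% of all unigenes called higher and 1.8% lower. Both Z1 libraries lay above both Z0 libraries in 5 (45.5%, against 41.5% of all unigenes) and below both in 1 (9.09%, against 18.2%). GPX4 (DN31393_c1_g1) was the most abundant, with 241.41 and 243.75 TPM under natural light against 293.85 and 247.13 TPM in shade. GPX1 of chloroplasts (DN37691_c1_g1) overlapped, with 191.51 and 271.15 TPM in Z0 against 170.37 and 229.22 TPM in Z1. Cluster DN29200 had 2 unigenes with both Z1 libraries on top, DN29200_c0_g2 at 120.21 and 139.14 TPM under natural light against 167.4 and 185.41 TPM in shade, and the *Citrus*-matched CSA (DN29200_c0_g1) at 49.92 and 73.19 TPM in Z0 against 131.05 and 96.21 TPM in Z1. The adjusted p values were 0.23 and 0.14. GPX8 (DN12928_c0_g1) also stood apart slightly, at 28.27 and 34.34 TPM under natural light against 48.19 and 44.85 TPM in shade (adjusted p = 0.169).

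**Figure D4:**
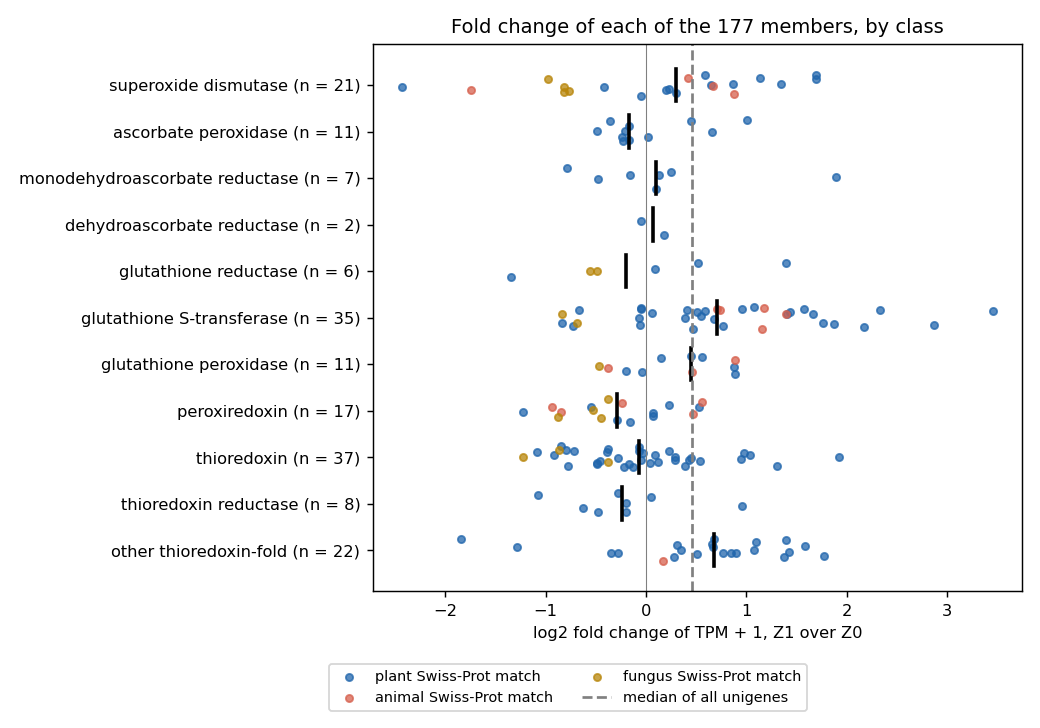
Log2 fold change (TPM + 1, Z1 over Z0) of each of the 177 members by class, coloured by the kingdom of the Swiss-Prot match, with a black bar at the class median and a dashed line at the median of all unigenes (0.45). GSTs lie mostly to the right, with a class median of 0.71, and thioredoxin reductases and peroxiredoxins to the left, at -0.24 and -0.29. The peroxiredoxins include animal and fungal matches. The 6 plant-matched ones with a mean of at least 10 TPM had a median of -0.046, with 3 positive and 3 negative.

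The thioredoxin system of chloroplasts held no call. Of 23 plant-matched thioredoxins, thioredoxin reductases and peroxiredoxins named as chloroplastic with a mean of at least 10 TPM, 9 had both Z1 libraries below both Z0 libraries (39.1%), 4 had both above (17.4%) and 10 overlapped. Over all 1034 chloroplastic unigenes of that level, rice left out, the shares were 30.1% and 27.0%, with 2.13% called higher and 0.58% lower. Whether the 23 differ from these was not tested, and 21 of the 23 had at least 10 TPM in every library. WCRKC2 (DN36711_c0_g4), at 6.41 and 6.47 TPM in Z0, passed only through Z1 and is among the 4. Thioredoxin-like 1-2 (DN36194_c0_g1), at 9.27 and 6.04 TPM in Z1, passed only through Z0 and is among the 9. The place of either is no support for a shift. Ferredoxin-thioredoxin reductase, which hands electrons from ferredoxin to thioredoxin, had 3 unigenes. All had both Z1 libraries below both Z0 libraries, as had 18.2% of all unigenes. The descriptions of the variable chains name no compartment, so these are not among the 23. Its catalytic chain (FTRC, DN30042_c1_g1) had 276.65 and 290.6 TPM in Z0 against 146.57 and 227.92 TPM in Z1 (log2 fold change -0.63, adjusted p = 0.221). The main variable chain (DN28749_c1_g4) had 107.59 and 104 TPM under natural light against 43.72 and 56.38 TPM in shade (log2 fold change -1.08, adjusted p = 0.0643), and the other one (DN25184_c0_g1) had 32.98 and 38.46 TPM in Z0 against 23.58 and 27.21 TPM in Z1. The 3 summed to 417.22 and 433.06 TPM under natural light against 213.87 and 311.51 TPM in shade, a ratio of 0.62. The main variable chain was called lower with a filter at 5 TPM (adjusted p = 0.0288) and without carlavirus-matched unigenes (log2 fold change -1.37, adjusted p = 0.0478).

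The thioredoxins that it reduces were abundant. Thioredoxin F2 (DN29112_c0_g2) had 431.6 and 435.54 TPM in Z0, 234.74 TPM in Z1-1 and 405.12 TPM in Z1-2, and thioredoxin M4 (DN35552_c2_g2) had 494.38 and 508.06 TPM in Z0, 306.37 TPM in Z1-1 and 481.05 TPM in Z1-2. In both, Z1-1 was far lower than Z1-2, which lay close under the Z0 libraries (adjusted p = 0.374 and 0.421). HCF164 (DN29631_c1_g5), a thylakoid thioredoxin-like protein needed to assemble the cytochrome b6f complex, had 135.72 and 140.06 TPM in Z0 against 84.82 and 112.89 TPM in Z1 (adjusted p = 0.237). Thioredoxin-like 4 (DN34698_c0_g1) had 18.61 and 21.33 TPM under natural light against 11.22 and 10.92 TPM in shade (log2 fold change -0.79, adjusted p = 0.0949), and was called lower after median-ratio scaling (adjusted p = 0.0496). The reductase NTRC (DN33901_c0_g1), which reduces 2-Cys peroxiredoxins with NADPH, was slightly lower in both Z1 libraries, at 35.06 and 34.88 TPM in Z0 against 24.88 and 32.86 TPM in Z1 (adjusted p = 0.449). The drought-induced CDSP32 (DN20726_c0_g1) had both Z1 libraries higher, at 114.07 and 133.46 TPM under natural light against 187.1 and 139.8 TPM in shade. Thioredoxin-like 3-2 (WCRKC2, DN36711_c0_g4) stood at 6.41 and 6.47 TPM in Z0 against 16.62 and 12.12 TPM in Z1 (log2 fold change 1.03, adjusted p = 0.0833). It was called higher with a filter at 5 TPM (adjusted p = 0.0418), but not after median-ratio scaling (log2 fold change 0.744, adjusted p = 0.127). Thioredoxin-like 1-1 (DN29244_c0_g1) was also higher, at 40.18 and 38.31 TPM in Z0 against 47.39 and 69.46 TPM in Z1 (adjusted p = 0.251), and thioredoxin X (DN29367_c0_g1) overlapped, at 50.89 and 50.06 TPM in Z0 against 49.39 and 77.23 TPM in Z1.

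Among the peroxiredoxins, peroxiredoxin Q of chloroplasts (PRXQ, DN30293_c1_g4) showed the widest gap, with 182.76 and 219.77 TPM in Z0 against 62.26 and 116.39 TPM in Z1. Its log2 fold change of -1.22 did not pass the threshold (SE 0.36, adjusted p = 0.112), except with a filter at 5 TPM (adjusted p = 0.0428). The most abundant peroxiredoxin, the 2-Cys type BAS1-like of chloroplasts (DN35966_c1_g1), overlapped, with 463.71 and 451.75 TPM under natural light against 364.74 and 457.57 TPM in shade, as did the cytosolic PRXIIB (DN31515_c0_g1), with 229.53 and 258.68 TPM in Z0 against 251.14 and 261.5 TPM in Z1. The unigene DN29068_c0_g1, matched to PRXIIE-1, was somewhat higher, at 33.25 and 33.47 TPM under natural light against 47.44 and 49.82 TPM in shade (adjusted p = 0.156), but summed with its cluster partner it gave 145.39 and 127.57 TPM in Z0 against 122.51 and 144.04 TPM in Z1. Sulfiredoxin (SRX, DN34870_c0_g1), the repair enzyme of overoxidised 2-Cys peroxiredoxins no member itself and picked after its values were seen, had 68.63 and 67.28 TPM under natural light against 32.35 and 45.82 TPM in shade (log2 fold change -0.80, adjusted p = 0.122).

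The library Z1-1 was the lowest for many of these chloroplast unigenes, and part of the photosynthesis markers was low there too. Summed photosystem I reaction centre subunits were 5595 and 5993 TPM in Z0-1 and Z0-2, 3886 TPM in Z1-1 and 5234 TPM in Z1-2, and phosphoribulokinase, a Calvin cycle enzyme that thioredoxin activates, was at 601.3, 555.2, 332.2 and 488.9 TPM in the same order. Summed oxygen-evolving enhancer proteins were at 2744.7, 2624.8, 1743.7 and 2199.2 TPM. The sums of the 22 chlorophyll a-b binding unigenes were level, at 7986.1, 8057.7, 7862.8 and 8117.6 TPM. Among the 22, log2 fold changes ran from -3.77 to 1.45, with 1 called higher and 2 called lower. The 4 Rubisco small subunits summed to 13507.5, 12803.6, 12073.5 and 13466.4 TPM, with 1 called lower and log2 fold changes from -2.61 to 0.04. Of the 33 plant-matched members named as chloroplastic with a mean of at least 10 TPM, 20 had a negative log2 fold change, with a median of -0.205. At least 10 TPM in every library was reached by 30 of the 33. WCRKC2 and FSD3 passed only through Z1 and DN36194_c0_g1 only through Z0, so their signs are no support. Over the 1034 chloroplastic unigenes, 564 were negative and the median was -0.05. The part of a general change of chloroplast transcripts in the values of the thioredoxin system was not tested.

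**Figure D5:**
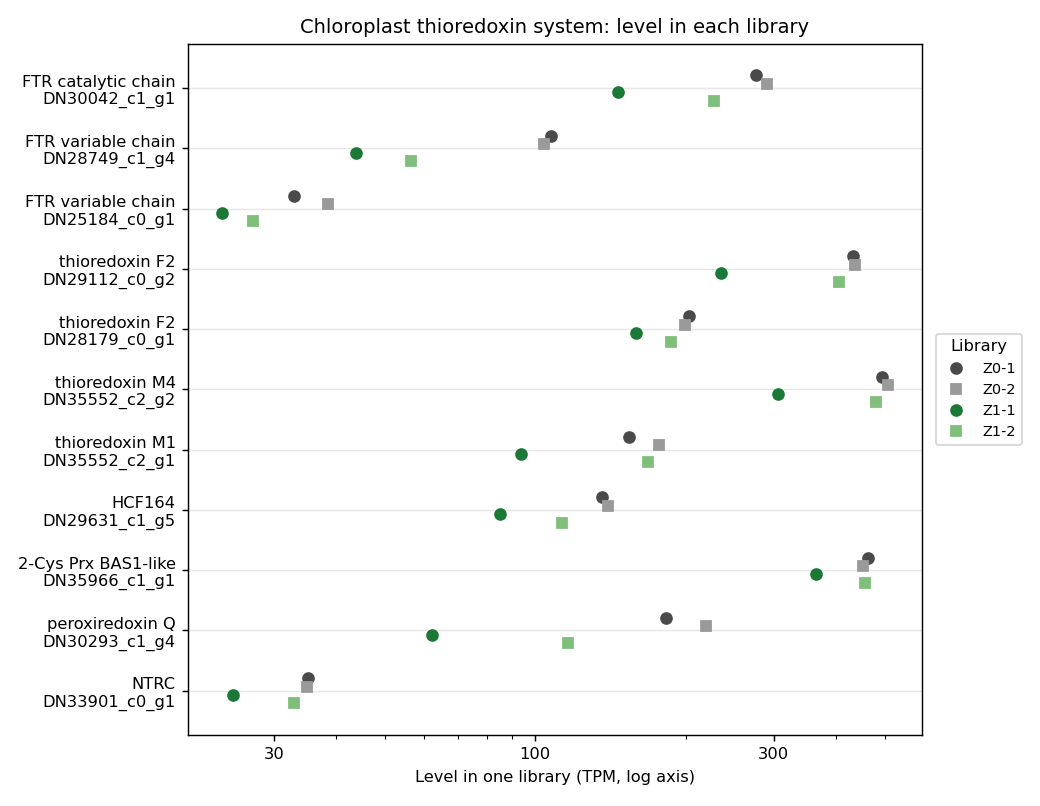
Level in each library (TPM, log axis) of 11 chloroplast members of the thioredoxin system, chosen after their values were seen, with Z0 in grey and Z1 in green. Z1-1 is the lowest library in all of them, and FTR (ferredoxin-thioredoxin reductase) and peroxiredoxin Q have both Z1 libraries below both Z0 libraries, with peroxiredoxin Q at 62.3 and 116 TPM in Z1.

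Thioredoxins outside the chloroplast were mixed. Thioredoxin H-type 1 (DN28090_c0_g3), a cytosolic form and the most abundant of all members, had 930.72 and 1299.51 TPM in Z0 against 1021.38 and 1251.9 TPM in Z1 (log2 fold change 0.04, adjusted p = 0.921). Another H-type unigene (DN29980_c0_g2) was higher, at 25.29 and 35.17 TPM under natural light against 76.54 and 73.69 TPM in shade (log2 fold change 1.30, adjusted p = 0.0565). It was called with a filter at 5 TPM (adjusted p = 0.0175), but not after median-ratio scaling (log2 fold change 0.993, adjusted p = 0.0597). A thioredoxin H2 unigene (DN26304_c0_g1) was lower, at 61.81 and 134.3 TPM in Z0 against 34.75 and 51.85 TPM in Z1 (log2 fold change -1.08, adjusted p = 0.198). A more abundant thioredoxin H2 unigene (DN36321_c0_g2) overlapped, at 87.06 and 122.17 TPM in Z0 against 132.74 and 110.32 TPM in Z1 (log2 fold change 0.23, adjusted p = 0.551). Thioredoxin reductase 2 (NTR2, DN32998_c1_g1), the NADPH-dependent enzyme of cytosol and mitochondria, overlapped, at 32.48 and 45.03 TPM under natural light against 41.06 and 38.38 TPM in shade. Over all 37 thioredoxins, those of chloroplasts included, the median log2 fold change was -0.07. Before adjustment p was under 0.05 with the fold limit for 3 upward (8.11%, against 16.5% of all unigenes) and 1 downward (2.7%, against 7.71%). The 3 upward were DN29980_c0_g2 and the chloroplastic WCRKC2 and DN36194_c0_g3, and the 1 downward was the fungus-matched DN17501_c0_g2.

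Of the 22 thioredoxin-fold proteins outside the other classes, 1 rose (4.55%, beside 3.2% of all unigenes). PLP3B (DN32835_c1_g2), a phosducin-like protein that in Arabidopsis helps tubulin to fold, had 7.79 and 8.58 TPM under natural light against 30.58 and 30.24 TPM in shade (log2 fold change 1.78, SE 0.20, adjusted p = 0.0366), and stayed called after median-ratio scaling (adjusted p = 0.0371). A homolog of thioredoxin domain-containing protein 9 (DN31201_c0_g1), of the same phosducin-like family, was also higher, at 9.99 and 10.98 TPM in Z0 against 27.41 and 20.21 TPM in Z1 (adjusted p = 0.0744). The spliceosome protein YLS8 (DN25893_c0_g1) overlapped, at 53.73 and 80.35 TPM under natural light against 76.02 and 87.4 TPM in shade. TDX (DN30322_c1_g2), a thioredoxin with TPR repeats that acts as a chaperone in Arabidopsis, had 63.18 and 68.87 TPM in Z0 against 83.37 and 76.98 TPM in Z1, and AAED1 (DN30142_c0_g1) had 44.87 and 41.54 TPM under natural light against 31.23 and 40.29 TPM in shade. The 6 TTL unigenes of cluster DN37629 summed to 13.06 and 15.43 TPM in Z0 against 26.17 and 31.23 TPM in Z1.

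Not every member need come from lilac. The Swiss-Prot match lay in a plant for 143 members, in an animal for 18 and in a fungus for 16, and all 7 calls were plant matches. In 11 members Z1-1 stood at 1.81 to 10.0 TPM, over 3 times any other library, with all other libraries under 2.5 TPM. Of these, 10 had animal Swiss-Prot matches, among them the mouse genes Gsta3, Gstm1, Gstp1, Gpx1, Sod1 and Ccs. Microsomal GST 1 (DN15593_c0_g1) is one, with 0.16 and 0.38 TPM in Z0, 10.0 TPM in Z1-1 and 0 in Z1-2. Another 5, among them 3 YLS8 fragments of cluster DN14255, were high in Z1-2 alone, the library in which the rice-matched unigenes are high. All 16 fungal matches had a negative log2 fold change, with a median of -0.72 and 13 below in both Z1 libraries. Over all 1456 unigenes with a fungal match the median was -0.72 as well, with 899 below in both Z1 libraries. None of the animal-matched, fungus-matched or single-library members had an adjusted p under 0.05, and their source was not tested.

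Outside the members, a list of 197 unigenes of related pathways was counted at the same thresholds, with catalases, glutaredoxins, nucleoredoxins, ferritins, alternative and respiratory burst oxidases, methionine sulfoxide reductases, and enzymes that make or use ascorbate, glutathione and tocopherol. Of these, 7 rose (3.55%, beside 3.2% of all unigenes), 3 fell (1.52%, beside 1.8%), and 187 were not called. Nucleoredoxin 1 (At1g60420, DN34280_c0_g2), which in Arabidopsis protects catalase from oxidation, rose from 22.28 and 29.38 TPM in Z0 to 91.67 and 71.77 TPM in Z1 (log2 fold change 1.63, adjusted p = 0.0469). Glutaredoxin GRXS10 (DN28566_c0_g1) rose from 8.15 and 5.79 TPM to 26.58 and 27.3 TPM (log2 fold change 1.83, adjusted p = 0.0406). Glutaredoxins reduce proteins with glutathione, and 2 of them matched to GRXS2 fell. DN26871_c0_g7 had 7.02 and 7.16 TPM under natural light against 0.17 and 0.42 TPM in shade (log2 fold change -2.65, adjusted p = 0.034), and the 256 nt fragment DN37256_c2_g1 had 4.89 and 6.85 TPM in Z0 against 0.22 and 0.24 TPM in Z1 (log2 fold change -2.47, adjusted p = 0.0369).

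The other calls of this list were low unigenes. They were 2 catalase unigenes (CAT3, DN29169_c1_g2, 3.77 and 2.85 TPM under natural light against 15.18 and 14.38 TPM in shade, and CAT2, DN31838_c1_g2, 0.65 and 0 TPM in Z0 against 7.67 and 5.68 TPM in Z1), which break down hydrogen peroxide. A 211 nt L-galactose dehydrogenase (DN31047_c1_g2) had 0.61 and 0 TPM under natural light against 4.59 and 4.55 TPM in shade, a lactoylglutathione lyase (DN24630_c0_g1) 0.03 and 0 TPM in Z0 against 4.52 and 4.41 TPM in Z1, and a fungus-matched mannose-1-phosphate guanylyltransferase (DN30895_c1_g1) 0.04 and 0 TPM under natural light against 8.45 and 6.08 TPM in shade. The 697 nt tocopherol O-methyltransferase (VTE4, DN30215_c0_g6) fell from 3.17 and 2.86 TPM in Z0 to 0.09 and 0 TPM in Z1. Abundant enzymes of the same steps stayed below the threshold. Catalase 1 (DN36609_c0_g2) had 530.35 and 691.11 TPM in Z0 against 1092.7 and 766.79 TPM in Z1 (log2 fold change 0.60, adjusted p = 0.247). Another abundant unigene matched to catalase 1 (DN30828_c2_g1) overlapped, at 741.89 and 719.89 TPM in Z0 against 532.32 and 731.62 TPM in Z1 (log2 fold change -0.23, adjusted p = 0.532).

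Of the enzymes that make glutathione and ascorbate, the most abundant unigenes had no call. Glutamate-cysteine ligase (GSH1, DN32999_c0_g6), the first step of glutathione synthesis, had 43.13 and 43.42 TPM under natural light against 36.34 and 48.46 TPM in shade, and glutathione synthetase (GSH2, DN33053_c0_g1) 27.29 and 35.26 TPM in Z0 against 28.7 and 28.52 TPM in Z1. GDP-L-galactose phosphorylase (VTC2, DN37018_c1_g1), the controlled step of ascorbate synthesis and the most abundant of 9, had 321.74 and 403.32 TPM under natural light against 264.87 and 306.45 TPM in shade (log2 fold change -0.34, adjusted p = 0.386). Of the 9, 4 had both Z1 libraries above both Z0 libraries (44.4%, against 41.5% of all unigenes) and 2 had both below (22.2%, against 18.2%), and DN29142_c1_g1 came closest to the threshold, with 4.04 and 5.23 TPM in Z0 against 14.11 and 11.46 TPM in Z1 (log2 fold change 1.29, adjusted p = 0.0602). Ascorbate oxidase (DN34894_c0_g1), which uses up ascorbate in the cell wall, was at 3.6 and 17.65 TPM in Z0 against 114.35 and 32.02 TPM in Z1, and differed several-fold within each condition (log2 fold change 2.74, SE 0.92, adjusted p = 0.139). It was called with a filter at 5 TPM (adjusted p = 0.0359), but not after median-ratio scaling (adjusted p = 0.171) or TMM scaling (adjusted p = 0.168).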

How the data were processed

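RNA of leaves of *S. oblata* was measured in 4 libraries of 2 GEO samples, matched to Z0 and Z1 by column names. The authors deposited TPM, which Salmon gave on a Trinity 2.4.0 assembly, with the length and annotation of 73159 unigenes. The submitters' notes also name cutadapt, FastQC and edgeR, their versions being not given in the sources used here. In the labels the molecule is genomic DNA, while the extraction text and the paper describe RNA. TPM keep no read depth, so depth and counting precision are unknown. The 2 libraries are biological repeats per the paper. What trees they share is not stated, so p-values measure the spread between these libraries.

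TPM do not allow a count test. log2(TPM + 1) was fitted with limma 3.58.1 (R 4.3.3, trended prior, no covariate) over unigenes with at least 1 TPM in 1 library, which all passed, all 177 members included. The fit was tested on simulated data. Named are called members, the 3 most abundant of each class, and up to 2 higher and 2 lower per class with at least 10 TPM in the higher condition, no overlap and an unadjusted p under 0.05. Of the pathway list, called unigenes and the most abundant of 5 enzymes are named. Members and lists were chosen with earlier results of these data known. Nr entries with no organism took it from the Swiss-Prot match of the same name, and no member had an animal as best Nr match. Tried as alternatives were a filter at 5 TPM or none, a pseudocount of 0.1 or of 5, median-ratio and TMM scaling (unweighted, trimming 30% and 5%), other thresholds, a replicate block, members of at least 500 nt, dropped unigenes put back, fits without rice-matched or carlavirus-matched unigenes, TPM summed per Trinity cluster (DN number), and each library left out. No sequence is printed, as none was used here. Python 3.11.15, pandas 2.3.3, matplotlib 3.10.9 and the R package data.table (version 1.17.8) made tables and plots.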

Additional observations from a re-analysis of the deposited data

Results flagged for a closer look

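The 59 rice-matched unigenes that the search found and the comparisons left out gave a signal in data outside the main measurement. They summed to 394.4 TPM in Z1-2, against 9.06 TPM in Z0-1, 6.9 TPM in Z0-2 and 0 in Z1-1, where all 59 were listed at 0. Z1-2 was the highest library for each of the 59, with 1.99 to 37.74 TPM, and the highest value in any other library was 1.15 TPM. Put back among the members, they added no call. The source of this signal was not tested.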

How the results depend on the processing

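As reported, limma called 6 members higher, 1 lower and 10 unigenes of the pathway list. Without one library in turn the counts ran from 0 to 7 higher, 0 to 1 lower and 0 to 5 of the pathway list. Only without Z1-1 were members called (7 higher and 1 lower), and 1 of these was among the 7 reported. The lone library is then assumed to vary like the other condition. With a pseudocount of 0.1 there were 0 higher members (30 at an unadjusted p under 0.05) and 1 unigene of the pathway list, and with 5 there were 0 higher (9), 0 lower (3) and 0 of the list. A filter at 5 TPM gave 15, 5 and 22 among 118 members, with all 7 reported calls kept. That fit called 3940 of all 31035 remaining unigenes higher and 1509 lower, so calls became more frequent in general and not only among the members. Median-ratio and TMM scaling each gave 4 lower, and both kept 5 of the 7. Without rice-matched unigenes the counts were 13, 4 and 18, without carlavirus-matched ones 4 lower and 6 of the list, and without both 6 lower and 16 of the list. Calls over all unigenes rose too: without rice matches 5635 of 67430 were higher and 2670 lower, and without both 3784 of 67420 and 3240. TPM summed per Trinity cluster, over 138 clusters, left 0 higher (17 at an unadjusted p under 0.05) and 1 of the list, and turned GRXS10 (DN28566_c0_g1) to -0.46 and VTE4 (DN30215_c0_g6) to 0.30. Such sums include unigenes that are not members. An unadjusted p under 0.05 gave 25, 8 and 47. The members' median log2 fold change was -0.19 to -0.14 under the scalings and without carlavirus-matched unigenes. The cause of these shifts was not tested. Plant-matched members alone, chosen after seeing the data, held all calls, with a median of 0.23. The other settings kept each count within 1.5 times. With the replicate block 4 were higher, 1 lower and 9 of the list. Same-numbered libraries deviated with a correlation of -0.09, so the numbers do not pair them.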

Other observations

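The alternative oxidases of the pathway list, mitochondrial and plastid enzymes that pass electrons from ubiquinol or plastoquinol to oxygen, had no call among 4 unigenes, with log2 fold changes from 0.54 to 2.81. All 4 were positive, as were 69.0% of all unigenes, of which 3.2% were called higher and 1.8% lower. AOX1 (DN33541_c1_g1) had 21.64 and 3.01 TPM under natural light against 51.96 and 82.82 TPM in shade (adjusted p = 0.124 with limma), and the plastid enzyme AOX4 (DN30390_c0_g2) 70.37 and 86.05 TPM in Z0 against 110.95 and 116.7 TPM in Z1 (adjusted p = 0.175). These were picked after their values were seen.

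The monothiol glutaredoxins of cluster DN26871 held more than the called GRXS2 unigene. GRXS2 (DN26871_c0_g3) had 81.65 and 115.14 TPM under natural light against 24.27 and 49.83 TPM in shade (log2 fold change -1.45, adjusted p = 0.108), and GRXS4 (DN26871_c0_g4) 61.48 and 70.31 TPM in Z0 against 18.71 and 51.74 TPM in Z1 (adjusted p = 0.251). These too were picked after their values were seen, and did not pass the threshold.

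Ferritins, which in plants store iron in chloroplasts, had no call among 15 unigenes, animal matches included. Among all unigenes 3.2% were called higher and 1.8% lower. Ferritin-3 (DN35498_c0_g1) had 31.19 and 49.84 TPM under natural light against 196.37 and 79.5 TPM in shade (log2 fold change 1.64, adjusted p = 0.125), and Ferritin-2 (FER2, DN32854_c1_g2) 106.52 and 106.16 TPM in Z0 against 86.26 and 119.07 TPM in Z1.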
